A study of Mus musculus with 20 samples.

Results

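The 10 genes described here encode integrin subunits of endothelium and epidermis. They were taken by gene symbol from a written list, 6 alpha subunits (Itga1, Itga2, Itga3, Itga5, Itga6 and Itgav) and 4 beta subunits (Itgb1, Itgb3, Itgb4 and Itgb6). All 10 were among the 24062 gene symbols of the count tables, and all 10 passed the filter on low counts that left 19209 genes for testing. RNA was sequenced from LECs, the CD31+podoplanin+ lymphatic endothelial cells sorted from digested ear skin of male wild type C57BL/6 mice (C57BL/6N in the study's methods) on postnatal day 56. Cells were taken at zeitgeber time (ZT, hours after lights on) 1 and 7, in the light phase, and at ZT13 and ZT19, in the dark phase. The time of day was what set the groups apart, and the labels name no transgene or treatment for any group. Each time point had 5 libraries, and each library pooled 4 ears from 2 mice.

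Integrins are receptors built of an alpha and a beta subunit that span the cell membrane, bind matrix proteins or counter-receptors outside the cell and are linked to the actin or the keratin cytoskeleton inside it. The beta subunit Itgb1 joins many alpha subunits, among them the collagen receptors with Itga1 or Itga2, the laminin receptors with Itga3 or Itga6 and the fibronectin receptor with Itga5. Itgav joins Itgb1, Itgb3 or Itgb6 in receptors for RGD-containing ligands such as vitronectin and fibronectin, and Itgb4 joins Itga6 alone in the laminin receptor of the hemidesmosome, by which basal keratinocytes are fixed to their basement membrane. In lymphatic vessels, integrins anchor the endothelium to the surrounding matrix and act in vessel growth and valve formation.

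Counts on genes ranged from 4475111 to 42002363 per library (median 9379794), and genes took 12.7% to 81.6% of the reads counted as on a gene or outside all genes. All 12 LEC markers were detected, with Prox1 between 1276 and 4490 and Lyve1 between 6393 and 29894 normalized counts in the 20 libraries. A normalized count is the count divided by the library size after TMM scaling, with these sizes set to a geometric mean of 1. Keratinocyte RNA was also present in every library, with Krt14 between 2936 and 72834 normalized counts. The mean centred log2 level of 16 keratinocyte markers, called the keratinocyte score, lay between -3.25 and -0.35 at ZT13 and between 0.17 and 1.64 at ZT19, so that the libraries of these time points did not overlap. Markers of other cell types were detected too. The 10 blood endothelial markers summed to 5432 to 15810.0 normalized counts per library (Plvap 975 to 7255, Vwf 0 to 457), the 12 fibroblast markers to 780.4 to 18798 (Col1a1 8.48 to 713.8) and the 13 leukocyte and platelet markers to 0.510 to 1183 (Ptprc 0 to 255). Among the 13 clock genes given as a reference, Dbp, a transcription factor driven by the clock, showed the time of day, with 237 ± 41.5 normalized counts at ZT1 and 766 ± 156 at ZT7 in the light phase, and 457 ± 70.6 at ZT13 and 192 ± 60.1 at ZT19 in the dark phase (SD, n = 5; adjusted p for a 24-h rhythm = 0.0126).

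The first question was which subunits had the most RNA in these libraries, which also held RNA of keratinocytes and other cell types. Per kb of exon length, Itgb1 had the highest level, with a mean of 1029.7 ± 222 normalized counts per kb (SD, n = 20 libraries). Itga6 followed with 597 ± 145 and Itgb4 with 564 ± 140.3 normalized counts per kb. A middle group held Itga5 (190.5 ± 100.3 per kb), Itgb3 (145 ± 50.1 per kb), Itga3 (128 ± 41.0 per kb) and Itgav (112 ± 50.3 per kb). The lowest levels were those of Itga1 (22.2 ± 13.7 per kb), Itgb6 (11.3 ± 8.62 per kb) and Itga2 (6.73 ± 8.08 per kb). The plot of levels per kb shows this order, with 3 steps between neighbours that were larger than the spread of either. Itgb1 was above Itga6 in 20 of 20 libraries, Itgb4 was above Itga5 in 20 of 20, and Itgav was above Itga1 in 19 of 20. The other neighbours in the order did not differ beyond their spread, as for Itga6 and Itgb4, where Itga6 was the higher in 12 of 20 libraries.

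**Figure D1:**
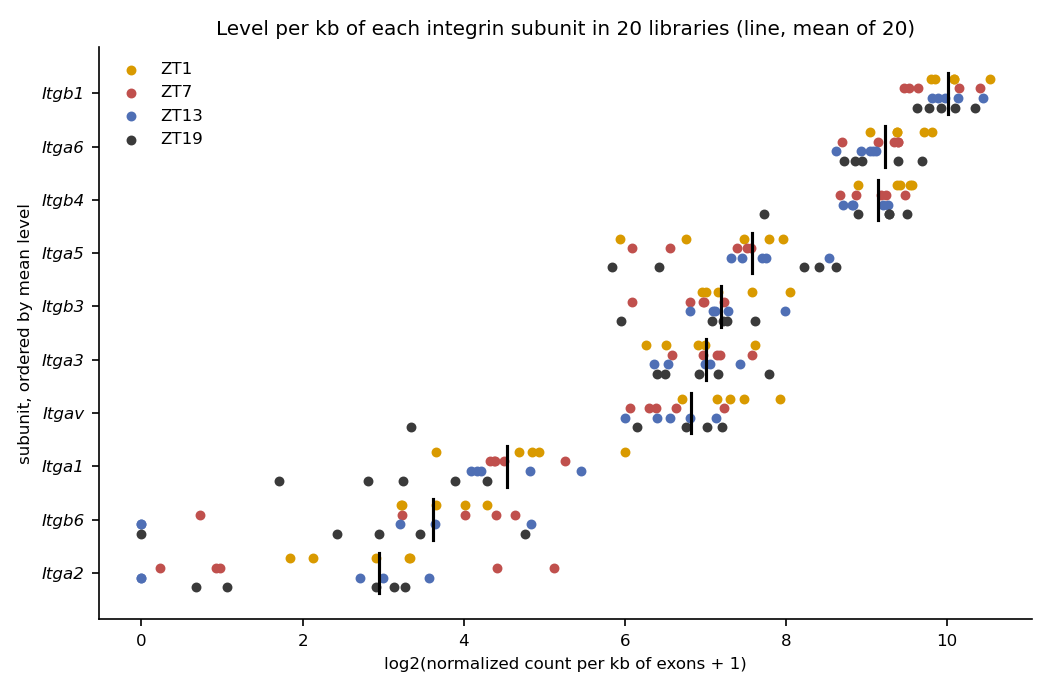
Level of each of the 10 integrin subunits on the log2(normalized count per kb of exons + 1) scale, with 1 point per library coloured by time point and a line at the mean of the 20 libraries. Itgb1 lies to the right at a mean of 1029.7 per kb, Itga6 and Itgb4 come next, and Itga1, Itgb6 and Itga2 lie to the left, with libraries at 0 for the last 2.

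Among all 26 integrin subunits in the files, these levels were shared unevenly. Of the beta subunits summed per kb, Itgb1 made up 54.4 ± 6.66% and Itgb4 29.9 ± 6.57%, whereas Itgb3 made up 7.67 ± 2.10% and Itgb6 0.614 ± 0.478% (SD, n = 20). Of the alpha subunits summed per kb, Itga6 made up 39.9 ± 7.81%, Itga5 12.7 ± 6.87%, Itga3 8.58 ± 2.45% and Itgav 7.33 ± 2.57%. Itga9, a subunit outside the list that is known from lymphatic valves, stood between Itgb4 and Itga5 in the order, with 258 ± 58.3 normalized counts per kb and 17.4 ± 3.98% of the alpha subunits. By time point, Itga6 made up 41.1 ± 4.23% of the alpha subunits at ZT1 and 40.4 ± 9.28% at ZT7, then 34.3 ± 3.50% at ZT13 and 43.5 ± 10.8% at ZT19 (SD, n = 5). Itgb1 made up 52.8 ± 4.62%, 52.5 ± 9.50%, 57.4 ± 7.22% and 54.9 ± 5.25% of the beta subunits in the same order of time points. These shares lay within the SD of one another between most time points and were not tested.

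Each gene lies on an autosome of the mouse genome (GRCm38, the build that mm10 denotes; positions from GENCODE M21), and all 10 are protein coding. Itga1 (chr13:114953096-115101964) and Itga2 (chr13:114833081-114932100) are neighbours on the minus strand of chromosome 13. Itga3 (chr11:95044474-95076801, minus strand), Itgb3 (chr11:104608000-104670476, plus strand) and Itgb4 (chr11:115974709-116008412, plus strand) lie on chromosome 11. Itga6 (chr2:71745616-71858416, plus strand), Itgav (chr2:83724397-83806916, plus strand) and Itgb6 (chr2:60598292-60722643, minus strand) lie on chromosome 2. Itga5 (chr15:103344286-103366763) is on the minus strand of chromosome 15 and Itgb1 (chr8:128685654-128733200) on the plus strand of chromosome 8. Exons of Itga1 share up to 451 bp with Gm49395 on the same strand, exons of Itgav up to 634 bp with Gm13684 on the opposite strand and exons of Itgb4 up to 130 bp with B230344G16Rik on the opposite strand. These 3 other genes have no row of their own in the count tables. The library kit does not mark the strand, so reads of Itgav and Itgb4 cannot be told from those of an opposite gene in the shared stretches, and reads of Itga1 cannot there be told from those of a gene on its own strand.

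As the study asked about the time of day, promoter sequences of the subunits were searched on both strands for elements bound by clock factors. The GC box and the AP-1 element, which other factors bind, were searched as well. RefSeq (GRCm38.p6) gave 9 promoters, from 250 bases before to 50 after a start site, for 7 of the 10 subunits (Itga1, Itga2, Itga3, Itga5, Itgav, Itgb1 and Itgb6). The E-box CACGTG was in 0 of 9 and in 7.15% of all 32851 promoters, and the element AGGTCA of the REV-ERB and ROR receptors in 0 of 9 and in 16.3% of all. The D-box TTATGNAA was in 1 of 9 (Itgb6) and in 3.38% of all. The GC box GGGCGG was in 6 of 9 and in 35.7% of all, and the AP-1 element TGANTCA in 1 of 9 (Itga3) and in 7.81% of all. No motif contains another, a match is a description, and its absence says only that the letters are not in the window. The promoters of Itga1 (largest difference), Itgb1 (steadiest) and Itgb6 (D-box) are given 5′ to 3′ in lower case on the strand of the gene, with a GC box or a D-box in capitals.
Itga1 (chr13:115101915-115102214, minus strand): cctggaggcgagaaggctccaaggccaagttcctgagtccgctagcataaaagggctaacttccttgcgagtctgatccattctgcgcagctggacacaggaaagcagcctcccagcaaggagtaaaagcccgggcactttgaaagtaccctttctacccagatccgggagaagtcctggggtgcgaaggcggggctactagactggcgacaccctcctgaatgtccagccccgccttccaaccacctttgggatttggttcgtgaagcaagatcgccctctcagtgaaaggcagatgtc
Itgb1 (chr8:128685404-128685703, plus strand): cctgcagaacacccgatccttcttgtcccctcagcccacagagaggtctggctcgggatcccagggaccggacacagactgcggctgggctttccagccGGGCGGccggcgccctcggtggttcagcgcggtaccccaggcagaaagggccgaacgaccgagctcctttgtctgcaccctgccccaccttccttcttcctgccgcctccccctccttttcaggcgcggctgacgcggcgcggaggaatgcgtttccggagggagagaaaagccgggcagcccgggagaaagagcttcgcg
Itgb6 (chr2:60722554-60722853, minus strand): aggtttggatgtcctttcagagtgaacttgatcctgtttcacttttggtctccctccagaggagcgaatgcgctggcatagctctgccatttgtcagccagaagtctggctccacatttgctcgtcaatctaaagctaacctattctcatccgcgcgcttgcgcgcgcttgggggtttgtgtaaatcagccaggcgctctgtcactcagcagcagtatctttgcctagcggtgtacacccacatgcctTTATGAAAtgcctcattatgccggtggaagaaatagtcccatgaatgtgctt

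The second question was whether any subunit varied with the time of day. None of the 10 did at the threshold. In edgeR's quasi-likelihood test among the 4 time points, 0 of 10 subunits passed an adjusted p of 0.05, where 0.422% of all genes tested did (81 genes). For a 24-h cosine curve it was 0 of 10, against 0.0312% of all genes. Between pairs of time points it was 0 of 10 in each of the 6 pairs. The share of all genes that passed was 0.00521% for ZT7 against ZT1, 0.0208% for ZT13 against ZT1, 0.0156% for ZT19 against ZT1 and also for ZT19 against ZT7, 0.0937% for ZT13 against ZT7 and 0.588% for ZT19 against ZT13. These shares depend on single libraries: without ZT19 replicate 4, 902 genes in place of 3 passed at ZT19 against ZT1, and without ZT13 replicate 5, 853 in place of 113 passed at ZT19 against ZT13, with 0 of 10 subunits in both. The adjusted p of the subunits lay between 0.266 and 0.990 among the 4 time points and between 0.604 and 0.989 for the curve. At an unadjusted p of 0.05 or less, 1 of 10 (Itga1) stood out among the 4 time points, where 15.7% of all genes did, and 0 of 10 for the curve, where 9.23% did. Itga1 was also the 1 of 10 at that unadjusted p at ZT19 against ZT1 (21.6% of all genes), against ZT7 (19.7%) and against ZT13 (19.2%), and 0 of 10 were at ZT7 against ZT1 (4.97%), ZT13 against ZT1 (5.37%) and ZT13 against ZT7 (2.59%). DESeq2 called 1 of 10, Itga1, at ZT19 against ZT1, where it called 10.5% of the genes with an adjusted p. It called no subunit among the 4 time points (3.45%), for the curve (0.741%), or at ZT7 against ZT1 (0.113%), ZT13 against ZT1 (0.615%), ZT13 against ZT7 (0.668%), ZT19 against ZT7 (11.8%) and ZT19 against ZT13 (9.34%), and for the curve and the first 2 of these pairs 8 of the 10 had an adjusted p.

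**Figure D2:**
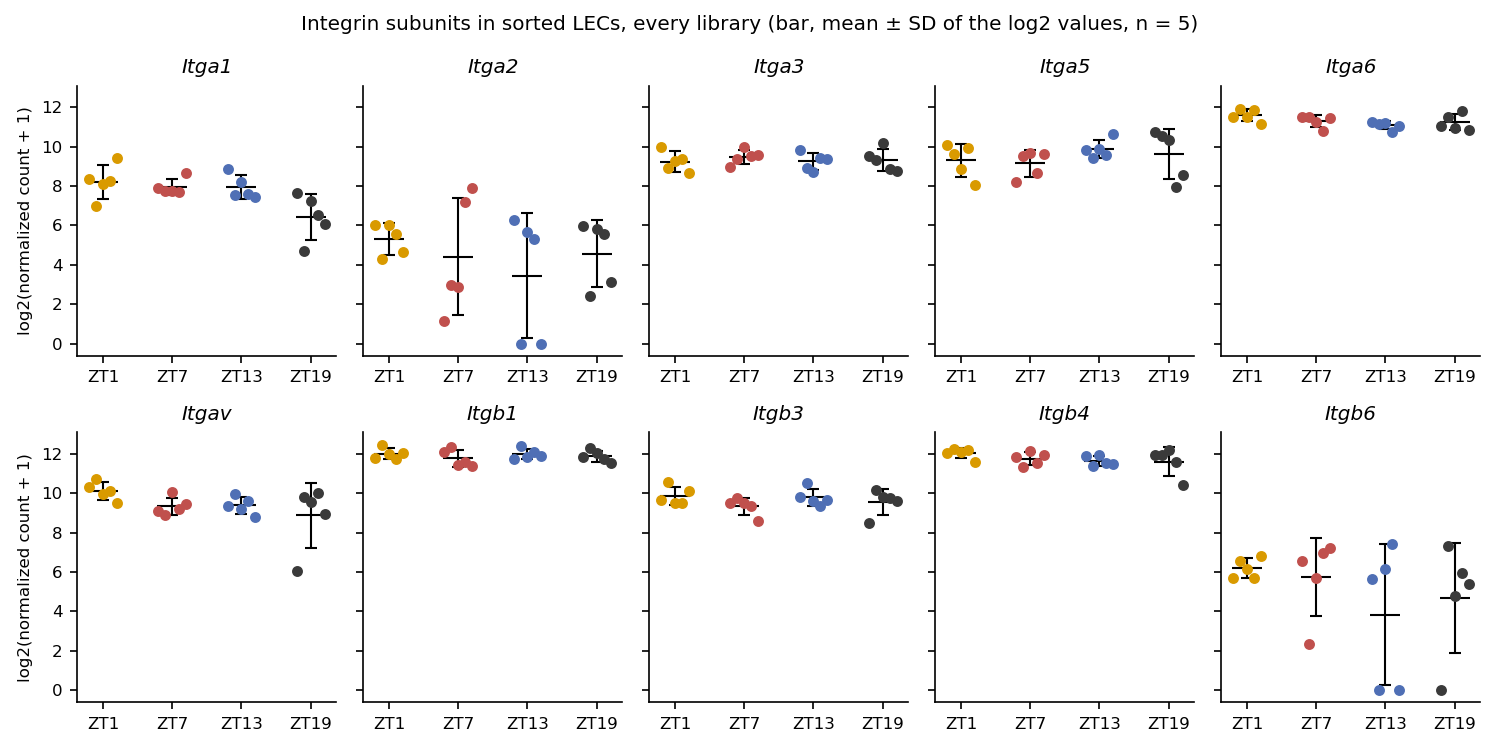
Level of each subunit on the log2(normalized count + 1) scale in every library, by time point, with the mean ± SD of the log2 values (n = 5). Itgb1, Itga6 and Itgb4 form narrow bands near the top at all 4 time points, the 5 ZT19 libraries of Itga1 lie between 24.8 and 203 normalized counts, and Itga2 and Itgb6 reach 0 in 2 and 3 libraries.

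Itgb1, the beta subunit with the most partners, was the steadiest of the 10. Its normalized counts were 3401, 3530.2, 4128, 4159 and 5629.9 at ZT1 and 2683, 2805, 3040.4, 4331 and 5176 at ZT7 in the light phase, and 3416, 3600.0, 3841, 4300.1 and 5328 at ZT13 and 3001, 3355, 3697, 4168 and 4972 at ZT19 in the dark phase. The 4 groups overlapped, and the highest library was 2.10 times the lowest. The largest difference between any pair of time points was -0.21 on the log2 scale (ZT7 against ZT1, 95% interval -0.83 to 0.42), and no interval of the 6 pairs reached past a 1.78-fold difference. The coefficient of variation over all 20 libraries was 0.215, and 0.87% of the 805 other genes with a mean within 2-fold of that of Itgb1 had a lower one (median 0.488).

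Itga6, the laminin-binding alpha subunit that pairs with Itgb1 or Itgb4, was nearly as steady. It stood at 2301, 2905, 2905, 3672 and 3927 normalized counts at ZT1 and 1806, 2458, 2831, 2914 and 2931 at ZT7, then 1709, 2130.2, 2291, 2350.4 and 2417 at ZT13 and 1837, 2010.2, 2146, 2935 and 3597 at ZT19. Most ZT1 libraries lay above all ZT13 libraries, but the lowest at ZT1 lay among them. The ZT13 mean was lower than the ZT1 mean by a log2 difference of -0.53 (SE 0.29, 95% interval -1.13 to 0.07, unadjusted p = 0.0810, adjusted p = 0.995), the largest difference of Itga6 in the 6 pairs. Its coefficient of variation was 0.242, and 2.60% of 1421 genes of like level had a lower one.

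Itgb4, the partner of Itga6 with the long intracellular tail that binds keratin linkers, stood at 3043, 4247, 4371, 4740.1 and 4833 normalized counts at ZT1 and 2595, 2979.6, 3688, 3872 and 4553 at ZT7 in the light phase, and 2659, 2883, 2914, 3769.7 and 3913 at ZT13 and 1344, 3031, 3969, 3973 and 4615 at ZT19 in the dark phase. The groups overlapped, with the lowest library of all at ZT19 (replicate 5). The largest difference was -0.40 (ZT13 against ZT1, SE 0.33, 95% interval -1.06 to 0.27), and no interval reached past 2.09-fold. Within a library, Itga6 counts were between 0.44 and 1.37 times those of Itgb4. The log2 ratio of Itga6 to Itgb4 was -0.44 ± 0.12 at ZT1 and -0.45 ± 0.41 at ZT7, then -0.56 ± 0.23 at ZT13 and -0.36 ± 0.71 at ZT19 (SD, n = 5). The ratios of the 4 time points overlapped.

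**Figure D3:**
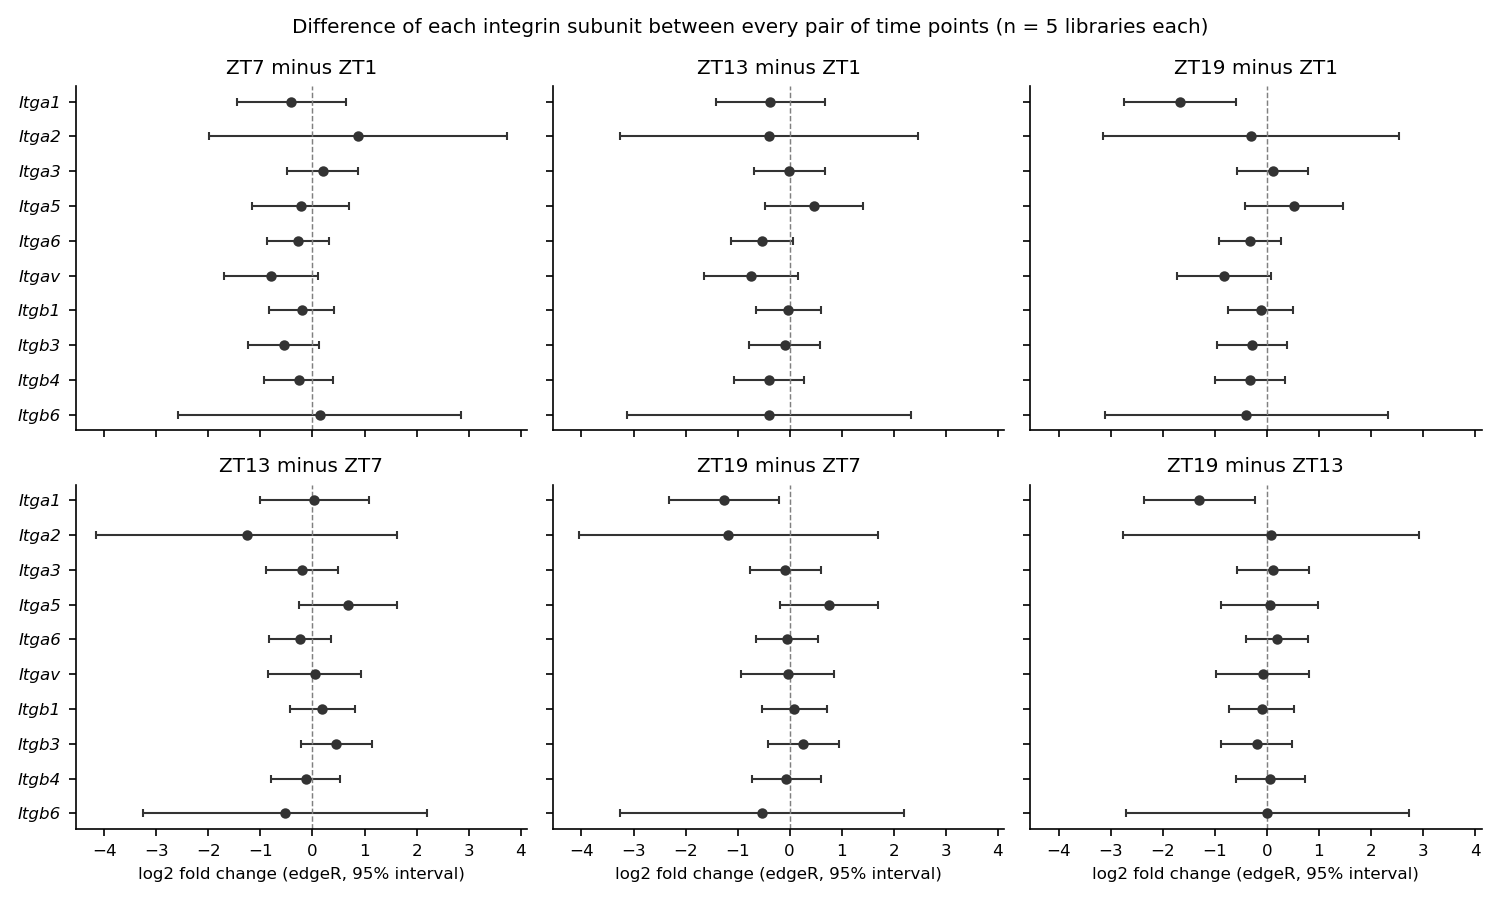
Log2 fold change of each subunit between every pair of time points (edgeR, 5 libraries each), with 95% intervals. Intervals are narrow for Itgb1, Itga6, Itgb4, Itga3 and Itgb3 and wide for Itga2 and Itgb6, and only those of Itga1 at ZT19 against the other 3 time points leave out 0 before adjustment for the number of genes.

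Itga3, the other laminin-binding alpha subunit, ranged from 399.9 to 1160.2 normalized counts over the 20 libraries, with a mean of 637 ± 242 at ZT1 and 730.2 ± 182 at ZT7 in the light phase, and 635 ± 189 at ZT13 and 689 ± 291 at ZT19 in the dark phase (SD, n = 5). No interval of its 6 differences reached past 1.85-fold. Itgb3, which pairs with Itgav, ranged from 352 to 1522, and its largest difference was -0.55 (ZT7 against ZT1, SE 0.33, 95% interval -1.23 to 0.13). Itga5, the fibronectin-binding alpha subunit, varied more. Its means were 715 ± 344 at ZT1 and 612 ± 243 at ZT7, then 986 ± 367 at ZT13 and 1027 ± 672 at ZT19, and the 5 libraries of ZT19 alone spread from 246 to 1717 normalized counts, 3 of them high and 2 low. The difference of Itga5 between ZT19 and ZT7 was 0.75 (SE 0.46, 95% interval -0.19 to 1.69, adjusted p = 0.368).

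Itgav, the alpha subunit shared by the RGD receptors, had its highest mean in the ZT1 libraries, with 730.3, 988, 1111, 1257 and 1709 normalized counts. It stood at 467, 549, 585, 693 and 1052 at ZT7, 446, 587, 658, 781 and 979 at ZT13 and 64.6, 495, 760.3, 909 and 1038 at ZT19. The groups overlapped, and 1 library at ZT19 (replicate 1, 64.6) lay far below all others. Against ZT1 the log2 difference was -0.79 at ZT7 (SE 0.44), -0.75 at ZT13 (SE 0.44) and -0.83 at ZT19 (SE 0.44, 95% interval -1.73 to 0.07, adjusted p = 0.268). The log2 ratio of Itgav to Itgb3 within a library was 0.25 ± 0.51 at ZT1 and -0.01 ± 0.70 at ZT7 in the light phase, and -0.40 ± 0.42 at ZT13 and -0.67 ± 1.04 at ZT19 in the dark phase (SD, n = 5). These values overlapped between time points.

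Itga1, the collagen- and laminin-binding subunit, was the member with the largest difference. Its normalized counts were 127, 271, 305, 324 and 689.6 at ZT1 and 209, 216, 218, 237 and 409 at ZT7, then 176, 186, 193, 299.5 and 471 at ZT13 and 24.8, 65.7, 92.9, 152 and 203 at ZT19. All 5 ZT19 libraries lay below all 5 of ZT7, and they overlapped with those of ZT1 and ZT13. Of the 10 subunits, Itga1 was the one with no overlap in any pair, and it was between ZT7 and ZT19, where 1.94% of all genes did not overlap. In the other pairs this share was 1.75% (ZT7 against ZT1), 1.47% (ZT13 against ZT1), 8.56% (ZT19 against ZT1), 1% (ZT13 against ZT7) and 2.48% (ZT19 against ZT13). The log2 difference at ZT19 was -1.67 against ZT1 (SE 0.52, 95% interval -2.74 to -0.60, unadjusted p = 0.00353, adjusted p = 0.0936), -1.26 against ZT7 (SE 0.52, adjusted p = 0.184) and -1.30 against ZT13 (SE 0.52, adjusted p = 0.167). None of these passed the threshold, and the 3 comparisons share the ZT19 libraries. The ZT19 libraries also stood apart from those of ZT1 in quality measures, without overlap. Genes took 35.0% to 81.6% of their reads against 20.2% to 29.5% at ZT1, and 12477 to 18768 genes had a count against 19055 to 21525 at ZT1. With the log2 odds of that share as a covariate, the difference of Itga1 from ZT1 was -1.34 (SE 0.66, adjusted p = 0.554). In sorted bulk samples, fewer cells that express a gene and less RNA per cell cannot be told apart.

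The value of Itga1 depended on the processing. DESeq2 called it at ZT19 against ZT1 (log2 difference -1.70, adjusted p = 0.0243, against a range of 0.0243 to 0.972 over 12 alternatives). Without 4 libraries whose share of reads on genes was high for their time point (ZT7 replicate 2, ZT13 replicates 2 and 5, ZT19 replicate 1), edgeR called it against ZT1 (-1.91, adjusted p = 0.0426, 4.2% of all genes), ZT7 (-1.71, adjusted p = 0.0458, 10.3%) and ZT13 (-1.87, adjusted p = 0.0457, 8.05%). These libraries were picked by name and not by a cutoff. ZT7 replicate 1, with a share of 37.7%, was kept, and ZT13 replicate 2, with 39.7%, was left out. With each library's own dependence of counts on exon length taken out by an offset, the difference against ZT1 was -0.04 (adjusted p = 0.972) and that against ZT7 was 0.03 (adjusted p = 0.981). Under that offset the median over the 10 subunits at ZT19 against ZT1 was 0.51 and that over all genes 0.26, against -0.32 and -0.39 as fitted without it. Itga1 has 10967 bp of exons, the longest of the 10, and 98.0% of the genes tested are shorter (median 3015 bp). Over all genes tested, the median log2 difference at ZT19 against ZT1 was -0.14 for the 5230 genes with under 2000 bp of exons and -0.88 for the 1169 genes with 8000 bp or more. The longest genes had the lowest median of the 4 length classes, and the part of length in the value of Itga1 beyond this offset was not tested.

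**Figure D4:**
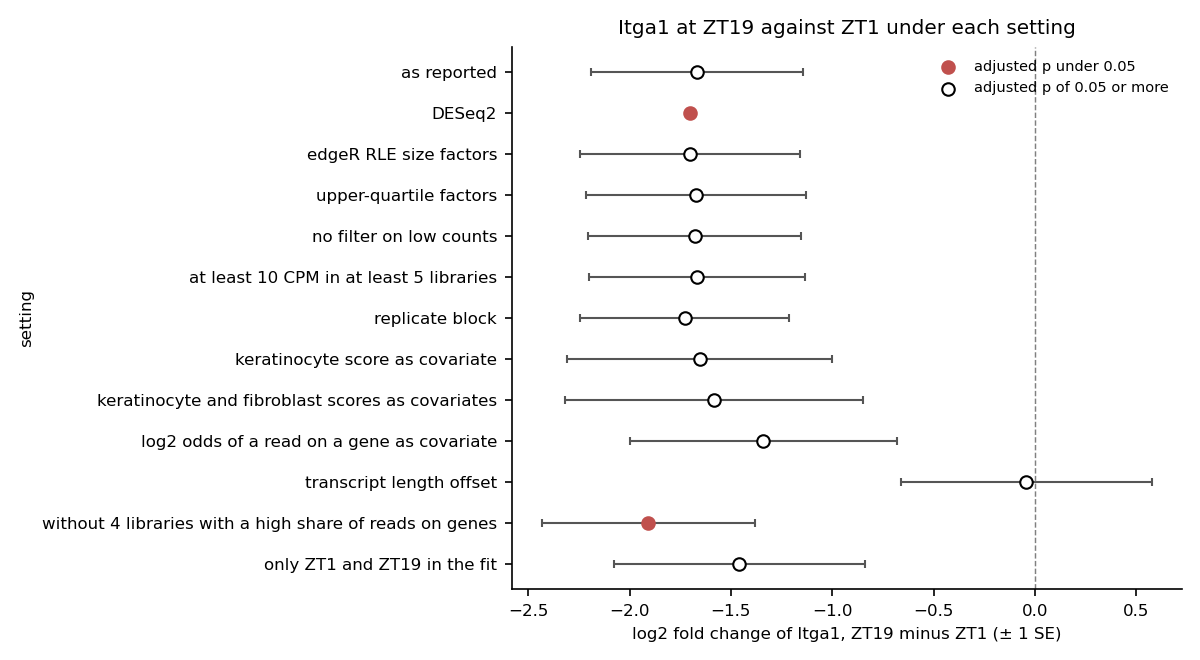
Log2 fold change of Itga1 at ZT19 against ZT1 as reported and under 12 alternative settings, with bars of 1 SE where the tool's table gave one (none for DESeq2). Filled points have an adjusted p under 0.05, which holds for DESeq2 and for the fit without 4 libraries, and the point with the transcript length offset lies at -0.04.

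Itga2, the other collagen-binding subunit, and Itgb6, an epithelial partner of Itgav, were low and uneven. Itga2 stood at 18.5, 23.9, 46.4, 63.7 and 64.7 normalized counts at ZT1 and 1.23, 6.35, 6.86, 144 and 239 at ZT7 in the light phase, and 0, 0, 39.4, 49.6 and 77.0 at ZT13 and 4.30, 7.73, 46.4, 55.6 and 61.2 at ZT19 in the dark phase. Itgb6 stood at 50.5, 51.1, 70.7, 92.3 and 113 at ZT1 and 4.00, 50.8, 92.2, 122 and 145 at ZT7, then 0, 0, 49.8, 69.4 and 167 at ZT13 and 0, 26.5, 40.9, 60.6 and 159 at ZT19. Both were at 0 in replicates 2 and 5 of ZT13, and Itgb6 also in replicate 1 of ZT19. A count of 0 allows up to 3 counts, which come to 3.18 normalized counts in ZT13 replicate 2, 0.648 in ZT13 replicate 5 and 0.766 in ZT19 replicate 1, for counting error only. These 3 libraries were deep, with 11854588, 42002363 and 36022409 counts on genes, but had a count for 15485, 13309 and 12477 genes, where ZT13 replicate 1 had one for 21697. The 95% intervals of the differences of Itga2 reached up to 17.8-fold and those of Itgb6 up to 9.60-fold, so these data bound their differences only loosely.

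Since Itga6 and Itgb4 are also subunits of basal keratinocytes, they were set beside the keratinocyte score. The lowest scores were those of ZT13 replicates 5 (-3.25) and 2 (-2.90), where Krt14 had 4387 and 2936 normalized counts. In these libraries Itga6 had 2130.2 and 2291 and Itgb4 2883 and 2659 normalized counts, with Itga6 inside and Itgb4 just below the range of the other 3 ZT13 libraries. Between ZT13 and ZT19, Krt5 rose by 2.84 on the log2 scale (SE 0.47, adjusted p = 0.00308), whereas Itga6 differed by 0.20 (SE 0.29, 95% interval -0.40 to 0.80) and Itgb4 by 0.07 (SE 0.32, 95% interval -0.60 to 0.74). The log2 ratio of Krt14 to Itga6 lay between 0.36 and 2.59 at ZT13 and between 3.64 and 5.31 at ZT19, without overlap. The intervals of Itga6 and Itgb4 end below the difference of Krt5, a description with no test of its own, since keratins were known to differ between these time points. Itga2 and Itgb6 were at 0 where the score was lowest, but low values also stood at high scores: Itgb6 was at 0 in ZT19 replicate 1 (score 0.77), and Itga2 had 1.23 to 6.86 normalized counts in 3 ZT7 libraries with scores from 0.73 to 1.73. The part of keratinocyte RNA in these zeros was not tested.

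**Figure D5:**
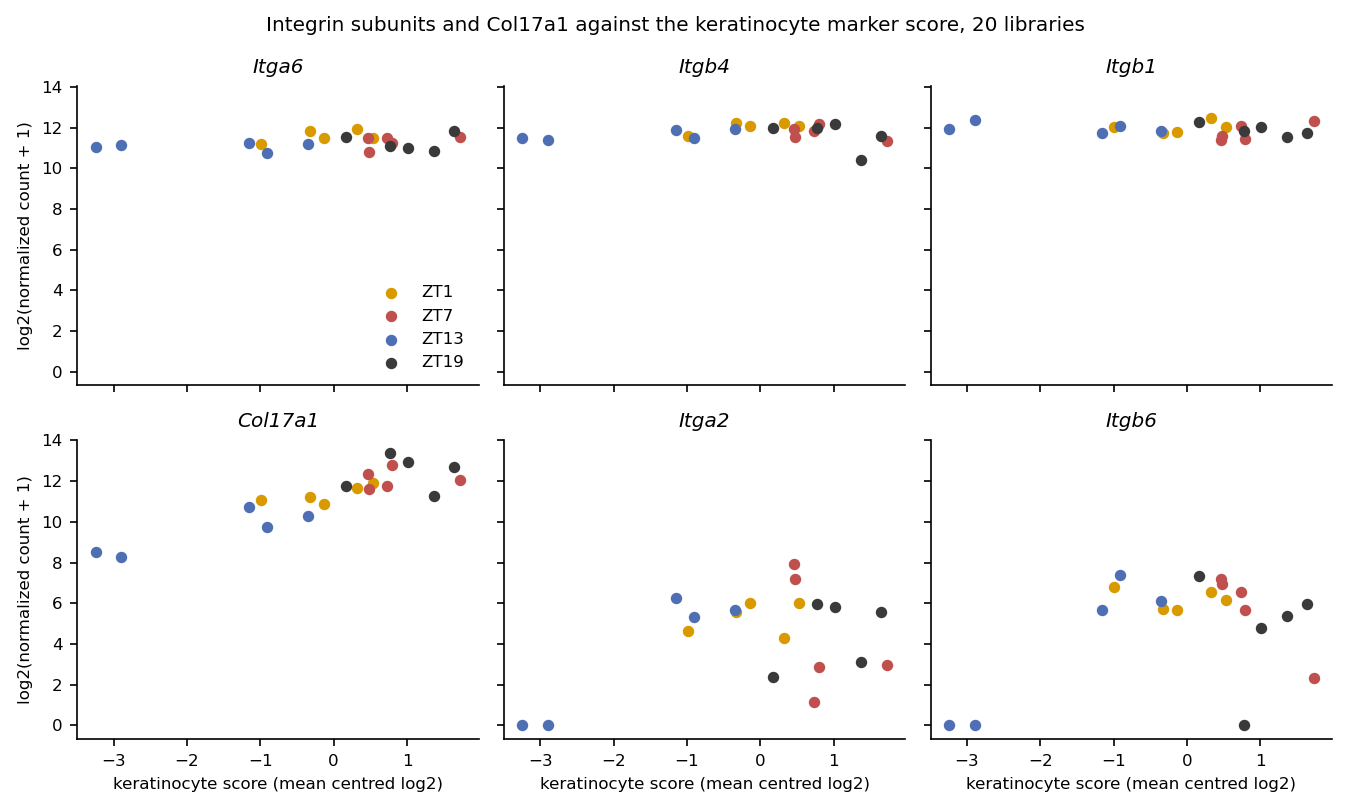
Level of 5 integrin subunits and of Col17a1 on the log2(normalized count + 1) scale against the keratinocyte score of the library, with points coloured by time point. Itga6, Itgb4 and Itgb1 form flat bands from the lowest score (-3.25) to the highest (1.73), Col17a1 is lowest in the 2 libraries with the lowest score, and Itga2 and Itgb6 are at 0 in those 2.

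Of 7 partners of Itga6 and Itgb4 in the hemidesmosome, 2 rose from ZT13 to ZT19 (0.588% of all genes differed), and 1 of them, Col17a1, fell by 2.38 on the log2 scale from ZT7 to ZT13 (SE 0.47, adjusted p = 0.0296; 0.0937% of all genes differed). Col17a1, the transmembrane collagen that binds Itgb4, had 314, 361, 846, 1267 and 1714 normalized counts at ZT13 and 2434, 3499, 6645, 7985 and 10595 at ZT19. Its libraries did not overlap, and the log2 difference was 2.79 (SE 0.47, adjusted p = 0.00368). Lamb3, a chain of the laminin that Itga6 and Itgb4 bind in the epidermal basement membrane, rose by 2.93 (SE 0.57, adjusted p = 0.0108). The log2 ratio of Col17a1 to Itgb4 lay between -3.08 and -1.14 at ZT13 and between -0.18 and 1.42 at ZT19. Keratinocyte markers moved the same way, with 8 of the 16 higher at ZT19 than at ZT13 and none lower, and their summed level lay between 12169.9 and 36220.3 normalized counts at ZT13 and between 99639.8 and 226510 at ZT19. With the keratinocyte score as a covariate the difference of Col17a1 was 1.45 (adjusted p = 0.248) and that of Lamb3 2.40 (adjusted p = 0.130). The score itself did not overlap between ZT13 and ZT19, and that fit called 0 of 19209 genes in this pair. Keratinocyte markers were not called in it either (Krt5 1.14, adjusted p = 0.321), so the part of keratinocyte RNA in these differences was not tested.

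Of 14 tetraspanins and other lateral partners of integrins, 2 rose from ZT13 to ZT19, Sdc4 and Emp2, where 0.588% of all genes differed. Sdc4, a heparan sulfate proteoglycan that acts with the fibronectin receptor in focal adhesions, had 568, 714, 801, 984 and 1106 normalized counts at ZT13 and 1447, 2256, 2664, 2711 and 3052 at ZT19, without overlap (log2 difference 1.54, SE 0.30, adjusted p = 0.0108). Emp2, a tetraspan protein, rose by 1.69 (SE 0.35, adjusted p = 0.0162). With the keratinocyte score as a covariate these differences were 0.90 (adjusted p = 0.316) and 0.85 (adjusted p = 0.403). That fit called 0 genes in this pair, so the part of keratinocyte RNA in them was not tested. Of 34 matrix ligands, 1 differed among the 4 time points, Col6a1, a chain of the collagen of microfibrils (adjusted p = 0.0456; 0.422% of all genes differed). It had 28.0, 275, 297, 307 and 336 normalized counts at ZT7 and 166, 838, 2627, 4209 and 4568 at ZT19, and no pair of time points passed (ZT19 against ZT7, log2 difference 3.32, SE 0.71, adjusted p = 0.107). DESeq2 called this pair (3.13, adjusted p = 0.000595), and with the keratinocyte score as a covariate edgeR did not call Col6a1 among the time points (adjusted p = 0.160), though its difference in this pair was 3.40 (adjusted p = 0.0509), and 2 genes in all in place of 81 were called in that fit. The 12 fibroblast markers summed to 1152 to 4733 normalized counts at ZT7 (median 2800) and 1526 to 13935 at ZT19 (median 8022). Of these markers 1, Ccdc80, was called among the 4 time points (adjusted p = 0.0128). The part of fibroblast RNA in the difference of Col6a1 was not tested.

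Of 37 activators and cytoplasmic linkers, edgeR called 0 among the 4 time points, with 9 at an unadjusted p of 0.05 or less (15.7% of all genes) and 3 called by DESeq2 (3.45% of all genes). The smallest p were those of Actn1, an actin crosslinker of focal adhesions (ZT19 against ZT1, -1.88, SE 0.45, adjusted p = 0.0825), and Tns3, a tensin that binds beta subunits (-1.81, SE 0.47, adjusted p = 0.0892). DESeq2 called both in this pair (adjusted p = 0.00323 and 0.00734). It called 5 of the 37 there (10.5% of all genes), 1 at ZT19 against ZT7 (11.8%) and 5 at ZT19 against ZT13 (9.34%). Of the 16 other integrin subunits, edgeR called 0 in any of the 8 tests, with 3 at an unadjusted p of 0.05 or less and 2 called by DESeq2 among the 4 time points, against the same 15.7% and 3.45% of all genes. The smallest p were those of Itga10, a collagen receptor subunit (ZT19 against ZT1, -3.42, SE 0.86, adjusted p = 0.0848), and Itga4, which binds fibronectin and VCAM-1 (ZT19 against ZT13, -2.19, SE 0.66, adjusted p = 0.0911). DESeq2 called both in these pairs (adjusted p = 0.00171 and 0.00267). It called 4 of the 16 at ZT19 against ZT1, 5 against ZT7 and 5 against ZT13, all lower at ZT19. Over all genes it called 10.5%, 11.8% and 9.34%. The median log2 difference from ZT13 to ZT19 was -1.80 over these 16 subunits, 0.03 over the 10 members and -0.22 over all genes tested. The sets were not of like level. All of the 16 but Itga9 and Itgb5 had a mean of at most 49.9 normalized counts per kb, against only Itga1, Itgb6 and Itga2 among the members. The part of level in these medians was not tested. The sign of the members' median depended on the scaling, with -0.15 under RLE factors and also with DESeq2, -0.23 under upper-quartile factors and 0.46 with the length offset. Of the 16, 3 (Itgam, Itgal and Itga2b) are also in the list of leukocyte and platelet markers, whose summed level lay between 217 and 753 normalized counts at ZT13 and between 0.510 and 326 at ZT19, and the part of such cells in this difference was not tested.

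By the Pearson correlation of log2(normalized count + 1) over the 20 libraries, the genes most like each subunit were not other subunits of the list. For Itgb1 they were Stau1 (r = 0.851), Pard6g (0.843) and Lmbrd1 (0.815), and for Itga6 they were Ipo8 (0.825), Tlk1 (0.752) and Ofd1 (0.749). For Itgb4 they were Med12 (0.854), Raver1 (0.838) and Clcn2 (0.827), for Itgb3 Phyhd1 (0.872), Sema6a (0.855) and Ehd1 (0.852), and for Itgav Lpp (0.913), Dennd4a (0.911) and Slc37a3 (0.909). For Itga1 they were Pik3c2a (0.824), Pla2g6 (0.820) and Il1rap (0.813), for Itga2 Arhgef17 (0.869), Pik3r5 (0.859) and Ankrd13b (0.858), and for Itgb6 Stk10 (0.955), Ror1 (0.938) and Sorl1 (0.920). For Itga3 they were Obsl1 (0.861), Fam188b (0.780) and Mroh7 (0.767), and for Itga5 Calcoco1 (0.894), Polg (0.868) and Twsg1 (0.865). Genes with a mean normalized count of at least 50 were searched, and few of these were subunits, so the absence of subunits above says little. Between subunits of the list, r lay between -0.486 (Itga2 and Itgb3) and 0.646 (Itgb1 and Itgb3). These values describe likeness within the same 20 libraries, which share depth and scaling.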

How the data were processed

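Dermal LECs were sorted from ear skin at 4 time points, and full-length cDNA (SMART-Seq v4, NexteraXT, unstranded) was sequenced in 5 libraries each. The submitters' processing notes name mm10, STAR, HTSeq 1.0.0 and DESeq2 2.11.40.6, and the values the authors deposited are raw counts per gene symbol without normalization. Samples were grouped by their labels. Counts were fitted in R 4.3.3 with edgeR 4.0.16 (TMM, filterByExpr by time point, quasi-likelihood F-test on the 20 libraries together). P-values were adjusted after Benjamini and Hochberg over 19209 genes, at a threshold of 0.05. Tests were made among the 4 time points (3 degrees of freedom), for 24-h cosine and sine terms (2) and for the 6 pairs. The common biological coefficient of variation was 1.00. Intervals are 95% intervals of the fit. Levels between genes were compared per kb of GENCODE M21 exons, and log2 values used a pseudocount of 1. Rows that name no gene (unassigned or unaligned reads) held 47.5% to 96.7% of a library and were left out.

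The genes named include the 10 subunits and the 3 most alike genes per subunit. From each list around the integrins, the genes that passed (at most 4) or the 2 with the smallest p were named. Marker and clock genes were named as examples, so not every marker that passed is named. The members and lists were chosen with earlier results of these data known. Alternatives were DESeq2 1.42.0, other scalings, filters and covariates, a length offset and libraries left out. The fits were tested on simulated data. Replicates are separate pools of mice, so p-values measure the spread between pools. No set test was run. No protein sequences were used, and promoters of Itga6, Itgb3 and Itgb4 were not used here.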

Additional observations from a re-analysis of the deposited data

Results flagged for a closer look

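In 3 of the 40 groups of 5 libraries (10 subunits at 4 time points), 1 library lay far from the other 4 on the log2 scale, where chance gives about 2 (1 in 20). For each, the gap to the nearest library was divided by the range of the group and set against a critical value of 0.71. For Itga1 at ZT7, replicate 5 was highest with 409 normalized counts, against 209 to 237 in the others (0.814). For Itgav at ZT19, replicate 1 was lowest with 64.6, against 495 to 1038 in the others (0.732). That library had the highest share of reads on genes (81.6%) and counts on the fewest genes (12477). For Itgb4 at ZT1, replicate 5 was lowest with 3043, against 4247 to 4833 in the others (0.721).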

How the results depend on the processing

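The count of subunits that passed stayed at 0 in all 8 tests under the alternatives run besides leaving out a library (12 for a pair of time points), with 4 exceptions. Itga1 made it 1 between ZT1 and ZT19 with DESeq2, and 1 between ZT1 and ZT19, 1 between ZT7 and ZT19 and 1 between ZT13 and ZT19 without the 4 libraries named in the report. Leaving out each library in turn, it was 0 in all 8 tests (20 fits), and the Itga1 difference of ZT19 from ZT1 lay between -2.04 and -1.26 (adjusted p 0.0647 to 0.186). The Itga1 values for ZT1 and ZT7 under alternatives were chosen after seeing the data. With the length offset, Itga1 at ZT19 against ZT7 was 0.029. The stricter filter left 8 subunits, without Itga2 and Itgb6.

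The log2 difference from ZT13 to ZT19 turned its sign for 8 subunits under some alternative other than leaving out a library, and for Itga6 under 1; as fitted these 9 lay between -0.19 and 0.20 and none passed (the cause was not tested). With DESeq2 it was Itga2 -0.11, Itga3 -0.037, Itga5 -0.053, Itgb4 -0.085 and Itgb6 -0.19. With RLE factors it was Itga2 -0.11, Itga3 -0.037, Itga5 -0.053, Itgb4 -0.085 and Itgb6 -0.19. With upper-quartile factors it was Itga2 -0.20, Itga3 -0.10, Itga5 -0.12, Itga6 -0.027, Itgb4 -0.15 and Itgb6 -0.25. With the keratinocyte score it was Itga2 -3.32, Itgb3 0.068, Itgb4 -0.034 and Itgb6 -0.76. With the keratinocyte and fibroblast scores it was Itga2 -1.18, Itgb3 0.062 and Itgb6 -1.34. Without the 4 libraries it was Itga2 -0.91, Itgav 0.33, Itgb1 0.14, Itgb3 0.34, Itgb4 -0.020 and Itgb6 -0.28. With genes of at least 10 CPM in at least 5 libraries it was Itga3 -0.026, Itga5 -0.042 and Itgb4 -0.074. With the replicate block it was Itga5 -0.094 and Itgb6 -0.0041. With the log2 odds that reads hit genes it was Itga5 -0.28 and Itgav 0.22. With the length offset it was Itgav 0.18, Itgb1 0.15 and Itgb3 0.078. Leaving out 1 library, it ranged for Itga2 from -0.24 to 0.67, for Itga3 from -0.15 to 0.28, for Itga5 from -0.20 to 0.31, for Itgav from -0.31 to 0.22, for Itgb1 from -0.20 to 0.021, for Itgb3 from -0.35 to 0.041, for Itgb4 from -0.067 to 0.27, for Itgb6 from -0.84 to 0.96. The median difference over all genes moved from -0.22 with TMM to -0.39 with RLE and -0.45 with upper-quartile factors. The genes called in this pair were 96 higher and 17 lower at ZT19 with TMM, 79 and 38 with RLE and 68 and 52 with upper-quartile factors. With DESeq2 they were 390 higher and 1608 lower, and without the 4 libraries 496 higher and 1151 lower. In all they were 113, against 1998 and 1647 in these 2 fits, 32 with these time points alone and 0 with the keratinocyte score, and among the time points 81, against 647 with DESeq2. Leaving out ZT13 replicate 5 gave 853 in this pair (324 higher, 529 lower), against 63 to 141 without any other library. Between ZT1 and ZT19 the count of 3 became 902 without ZT19 replicate 4 and 191 without ZT13 replicate 5, against 0 to 3 without any other library. Among the time points it ranged from 30 (without ZT13 replicate 4) to 178 (without ZT19 replicate 4).

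Same-numbered libraries come from different mice, and their mean correlation lay between -0.06 and 0.09 over the pairs of time points, with 8 of 20 libraries most like their own number. Blocking on the replicate number, 0 of 10 subunits passed, and the count over all genes went from 81 to 31 among time points, from 113 to 58 between ZT13 and ZT19 and from 6 to 0 for the curve. Itga2 and Itgb6 were at 0 counts in up to 3 libraries, which were not the shallow ones.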
